A study of Gallus gallus with 5 samples.

Results

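The subject is a set of 1773 accessible chromatin regions that were listed in every ATAC-seq library of ThrbCRM1-positive chick retinal cells, in no library of ThrbCRM1-negative cells, and more than 50 kb from any other such region. ATAC-seq uses the Tn5 transposase to cut and tag DNA that is not wrapped in closed chromatin. Retinas of Gallus gallus were taken at embryonic day 5, co-electroporated with a GFP reporter under the ThrbCRM1 element and a Cherry plasmid under the CAG promoter, and kept in explant culture for 48 h. Cherry-positive cells were then sorted into GFP-positive cells (ThrbCRM1-positive, 3 libraries) and GFP-negative cells (ThrbCRM1-negative, 2 libraries). Both groups come from retinas given both plasmids and carry the Cherry marker. The labels do not say whether the GFP-negative cells had taken up the reporter plasmid. The labels give no genotype or strain and do not say whether the libraries came from separate electroporations, so the spread between libraries may be technical.

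ThrbCRM1 is a cis-regulatory module of Thrb, the gene of a thyroid hormone nuclear receptor that is needed for cone subtype identity. The element marks retinal progenitor cells with a restricted fate that give rise mainly to cone photoreceptors and horizontal cells, and the homeodomain factor Otx2 and the Onecut factor Oc1 act on it. The study concerned the role of these factors in cone development. Regions of open chromatin away from promoters often hold enhancers, short stretches of DNA that bind transcription factors and act on genes at a distance. Regulatory regions of cell identity genes can lie in dense groups, and the regions described here are those that stand apart from one another.

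The members were chosen by the authors' fold enrichment and by presence in the lists, so their height in positive libraries and their absence from negative libraries are a description and not a finding. Within each list, intervals were ranked by the fold enrichment of their highest summit over the local background. The strongest 50000 of each of the 5 lists were merged into 79104 regions, with mitochondrial DNA left out. In all 3 positive lists, an interval within rank 50000 covered 36354 of them. Within that number, 30497 were also among the strongest intervals of at least 1 negative list, and 3250 appeared in a negative list only below rank 50000. The remaining 2607 were in neither negative list at any rank, which is 3.3% of all regions and 7.17% of those strong in all 3 positive lists. The 50 kb rule split them into 1773 isolated and 834 clustered regions. The isolated regions are thus 2.24% of all regions and 68.0% of the positive-only ones. The mirror definition, strong in both negative lists and in no positive list, gave 2476 regions (3.13%), and 27432 regions (34.7%) were strong in all 5 lists and are called shared below.

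The lists held 71596 to 86433 unique intervals in positive and 84207 and 104902 in negative libraries. They give no read counts, so depth is unknown. Absence from a list means that no interval passed the caller's threshold, and chromatin there may still have been open. Peak names fall into 2 naming series, replicate 1 of each group in the first and the other 3 libraries in the second. The same rule gave 3356 isolated regions in the first series alone, which has 1 library per group, and 2430 in the second. Positions are in galGal5, the build named in the submitters' processing notes, with 1-based starts. No genome or annotation of that build was used, so genes near the regions and sequence within them were not analysed here.

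The isolated regions were of moderate height in the positive lists. Their median fold enrichment was 3.66 in positive replicate 1, 4.0 in positive replicate 2 and 4.37 in positive replicate 3. The lowest member had a value of 2.67, 2.8 and 2.98 in the same lists and the highest 8.87, 10.4 and 11.5. Regions shared by all 5 lists had medians of 5.54, 5.75 and 6.33. In rank, the isolated regions had medians of 30673, 28020 and 28724, where rank 1 is the strongest interval of a list. The middle 50% of members lay between ranks 23731 and 39420 in positive replicate 1, between 20633 and 36232 in positive replicate 2 and between 21786 and 36854 in positive replicate 3. The best rank of any member in any positive list was 2737.

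A member's poorest rank over the 3 positive lists shows how firmly it sits in all of them. It was 10000 or better for 4 members, 20000 or better for 109 (6.15%) and 30000 or better for 488 (27.5%). A further 566 members had a poorest rank of 30001 to 40000, and 719 (40.6%) lay between 40001 and 50000, next to the limit of the rule. Isolated regions were also a growing share of the positive list as rank fell. Of the 7566 regions within rank 10000 in all 3 positive lists, 0.0529% were isolated positive-only regions. The share was 1.34% of 7832 regions at 10001 to 20000, 5.07% of 7477 at 20001 to 30000, 8.08% of 7005 at 30001 to 40000 and 11.1% of 6474 at 40001 to 50000. The rise was not particular to isolated regions. All positive-only regions went from 0.0661% in the first band to 16.8% in the last. The isolated part of them was 80% of 5 regions in the first band and 66.1% of 1087 in the last. Over the same bands, the share of these regions listed at any rank fell from 99.7% to 73.6% in negative replicate 1 and from 99.8% to 79.9% in negative replicate 2. Weaker regions of the positive cells were therefore missing from the negative lists more often than strong ones. How far detection at low height sets this gradient was not tested.

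**Figure D1:**
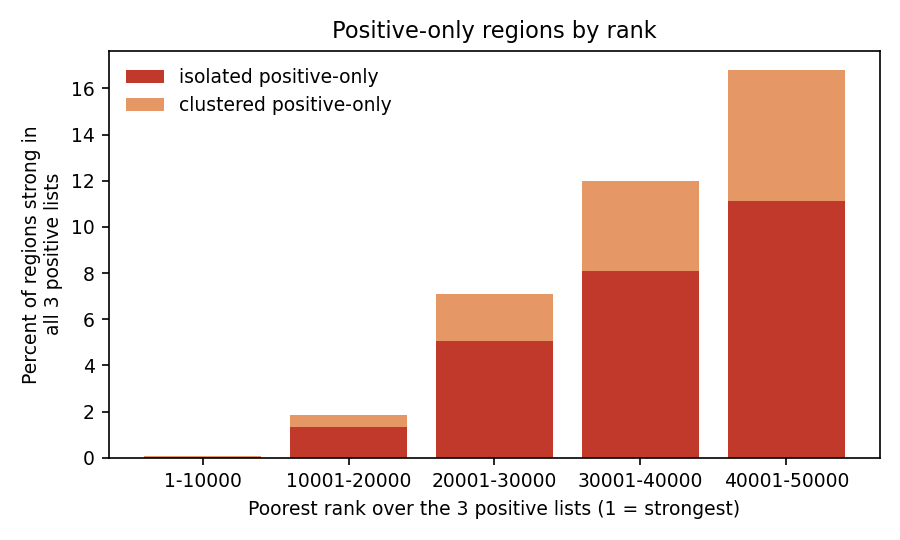
Bars give the percent of regions strong in all 3 positive lists (y axis) that were isolated or clustered positive-only, by their poorest rank over the 3 lists (x axis, 1 being the strongest). The isolated share rises from 0.0529% in the first band to 11.1% in the last, and that of all positive-only regions from 0.0661% to 16.8%.

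Each library was next asked about regions that it had not helped to choose. The rule was applied to the other 4 lists, and the isolated regions it gave were looked up in the list left out. Of 2201 isolated regions defined without positive replicate 1, 89.1% had an interval there. Of 2066 defined without positive replicate 2, 90.2% were listed in it, and of 2090 defined without positive replicate 3, 88.1%. The left-out positive libraries thus listed about the same share, and 72.1%, 80.6% and 76.7% were among their strongest 50000 intervals. Of 2030 isolated regions defined without negative replicate 1, 19.95% were listed in it, and of 2492 defined without negative replicate 2, 41.1%. Only 5.81% and 11.8% were among the strongest 50000 intervals of these negative lists. The values of the 3 positive libraries and the 2 negative libraries did not overlap. Over all regions merged from the other 4 lists they did, at 78.1%, 71.1% and 71.6% in the left-out positive and 73.9% and 81.0% in the left-out negative lists. Negative-only regions defined without a list went the other way, with 42.6%, 16.7% and 19.8% listed in the positive and 69.3% and 82.7% in the negative libraries. Regions strong in the remaining positive lists, whatever their state elsewhere, were listed in 96.0 to 97.4% of cases by a left-out positive library and in 88.1 and 91.1% by a left-out negative library. The definitions differ in the number of lists they require, so these shares are given without a test. The higher value in negative replicate 2 goes with the longest of the 5 lists, and the part of list length in it was not tested.

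**Figure D2:**
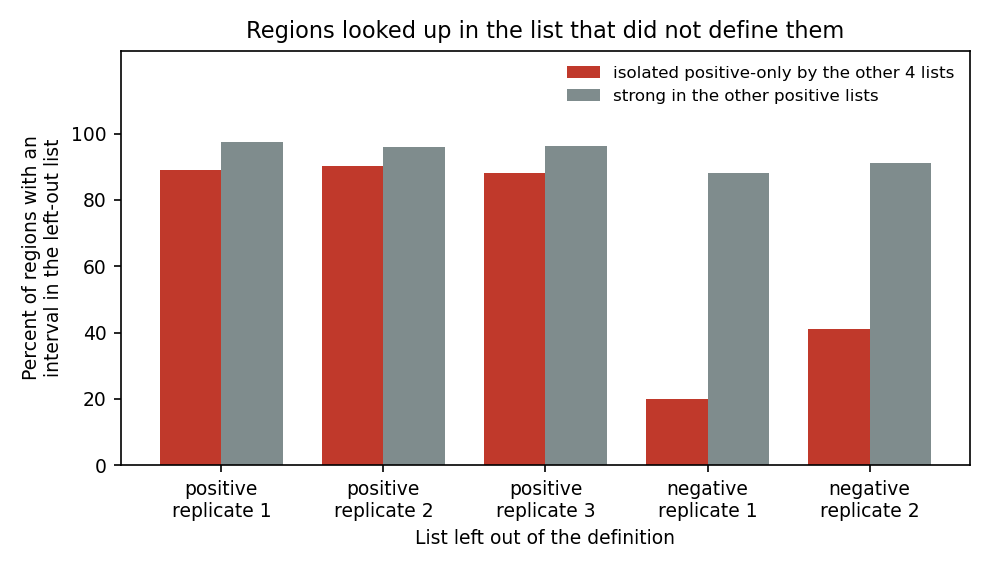
Bars give the percent of regions with an interval of any rank in the list that was left out of the definition (y axis), for each left-out list (x axis). Isolated positive-only regions were found in 88.1 to 90.2% of cases in positive lists and in 19.95 and 41.1% in negative lists. For all regions strong in the other positive lists, the shares were 96.0 to 97.4% in positive lists and 88.1 and 91.1% in negative lists.

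Clustered regions gave like values, at 90.9%, 95.1% and 89.7% in the left-out positive lists and 19.9% and 38.5% in the left-out negative lists. Where an isolated region defined without a negative library was listed there, it stood low, at a median rank of 60183 in negative replicate 1 and 64213 in negative replicate 2. In the left-out positive libraries the median rank was 34183, 29893.5 and 30787.5.

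By mean rank, the 10 leading isolated regions were on chromosomes 1, 2, 3, 4, 13 and 15. The first spanned 471 bp of chromosome 3 from 84428639 to 84429109. Positive replicates 1, 2 and 3 placed it at ranks 5538, 7811 and 2737 and gave it fold enrichments of 8.32, 7.78 and 11.5. Its single summit lay at 84428793, 84428802 and 84428803, a span of 10 bp. The nearest interval of a negative list was 10438 bp away, the nearest shared region 92.3 kb and the next positive-only region 385 kb. This was the member farthest from shared accessible chromatin among the 10.

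The second, on chromosome 2 from 97106634 to 97107790, was the widest of the 10 at 1157 bp. Its fold enrichment was 8.87, 10.0 and 7.98, and it held 2, 4 and 3 summits in the 3 lists. The strongest of them lay within 6 bp of each other, although several summits were called. The third, on chromosome 1 from 66771233 to 66771912, had fold enrichments of 6.92, 10.4 and 9.12. A negative interval lay 1415 bp from it. The fourth, on chromosome 15 from 1240967 to 1241272, was the narrowest at 306 bp and reached 6.54, 8.78 and 10.6 with summits within 21 bp.

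The fifth lay on chromosome 2 from 10985632 to 10986239. Its fold enrichment was 5.91 in positive replicate 1 against 9.37 and 10.5 in replicates 2 and 3, and its summits at 10985955, 10985950 and 10985949 were 6 bp apart. It is the one member of the 10 with a shared region within 1 kb, 772 bp from its edge, so accessible chromatin of both populations lay beside it. The sixth, on chromosome 1 from 56551410 to 56551950, had fold enrichments of 7.56, 7.28 and 9.49 and no negative interval within 31647 bp, the largest such gap of the 10. The seventh, on chromosome 4 from 89538227 to 89538757, went the other way between libraries, with 8.79, 9.42 and 6.21.

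The eighth, on chromosome 13 from 18270993 to 18271658, had the widest spread of summits of the 10, 150 bp, and fold enrichments of 7.43, 8.16 and 7.28. The ninth, on chromosome 1 from 146809501 to 146810154, differed most between libraries, at 5.43, 7.78 and 11.1. The tenth, on chromosome 2 from 66106965 to 66107480, reached 6.36, 8.57 and 7.86 and was 398 kb from the next positive-only region. Positive replicate 3 gave the highest fold enrichment in 5 of the 10, positive replicate 2 in 5 and positive replicate 1 in none, and fold enrichments are not normalized between libraries.

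**Figure D3:**
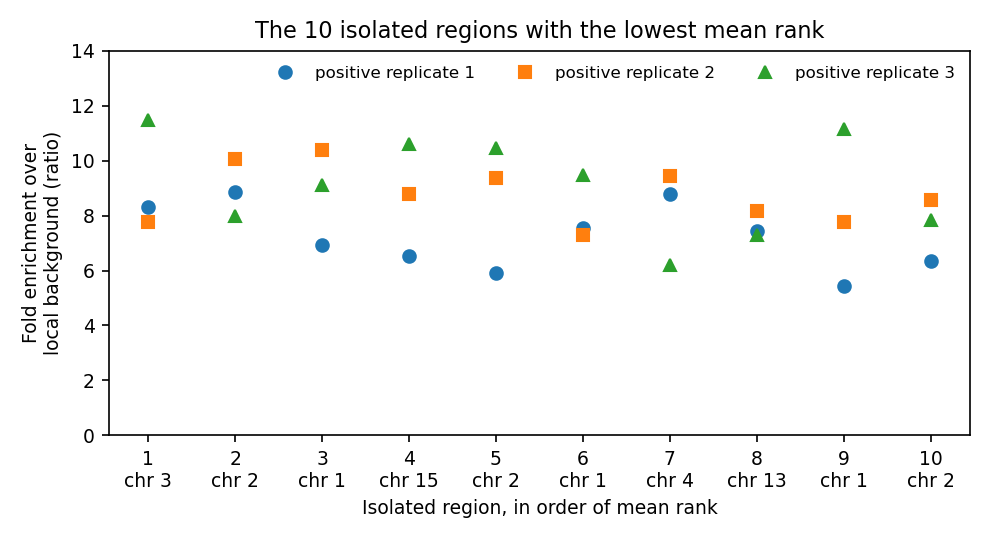
Points give the authors' fold enrichment over local background (y axis, a ratio) in each of the 3 positive lists for the 10 isolated regions with the lowest mean rank (x axis, with their chromosome). The values run from 5.43 to 11.5, and the libraries do not keep the same order from region to region.

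Over all members, the spread of a region between positive libraries was somewhat larger than in shared regions. The highest of its 3 fold enrichments was 1.32 times the lowest at the median, against 1.26 for shared regions and 1.32 for clustered ones. In 1346 members (75.9%) this ratio was 1.5 or less, and in 30 members it exceeded 2. The range of ranks over the 3 lists had a median of 11330 places, against 11694.5 in clustered regions. It was 5887 in shared regions, which stand higher in the lists. Across members, fold enrichments of pairs of positive libraries were related at Spearman's rho of 0.479, 0.469 and 0.525 (n = 1773 regions). Clustered regions were alike, at 0.49, 0.432 and 0.465 (n = 834 regions). The same values were 0.873, 0.881 and 0.871 over the 27432 shared regions, whose fold enrichment covers a wider range. These relations are across regions of the same libraries, which are not independent of each other. Positive replicate 2 held the best rank for 723 members, positive replicate 3 for 601 and positive replicate 1 for 449. This count was not made for other regions, so whether the members differ from them was not tested. Positive replicate 1 is the positive library of the first naming series.

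The isolated regions were narrower than shared regions and mostly had a single summit, and clustered positive-only regions were alike in both. The median width of isolated regions was 424 bp, with 5% of members under 213 bp and 5% over 826 bp. It was 418.5 bp for clustered, 446 bp for negative-only, 880 bp for shared and 520 bp for all regions. Within positive replicates 1, 2 and 3, the members' intervals were about as wide as others. Their median total width was 362, 287 and 277 bp, against 341, 280 and 293 bp over all intervals of the list. In 1065 members (60.1%) every positive list called 1 summit, compared with 57.2% of clustered and 27.9% of shared regions. More than 1 summit was called in 25.4%, 21.5% and 14.8% of members in positive replicates 1, 2 and 3, and in 52.4%, 53.6% and 48.3% of shared regions. The widest member spanned 1521 bp of chromosome 1 from 88772581 to 88774101, with 6, 4 and 3 summits in the 3 lists. Its strongest summits lay within 164 bp.

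Summit positions were not used to choose the regions, but the strongest summits lie inside the region. Region width thus limits how far apart they can be, and its median was 424 bp in isolated and 880 bp in shared regions. The agreement that width alone would give was not computed. The strongest summits of the 3 positive libraries lay within 100 bp of each other in 1558 of 1773 members (87.9%) and within 50 bp in 1164 (65.7%), and the median span was 36 bp. For pairs of libraries, the median distance between summits was 20 to 21 bp. Shared regions had summits within 100 bp in 79.4% of cases. That order turned round when only regions with 1 summit in each positive list were counted, at 75.8% of 1065 isolated and 83.3% of 7663 shared regions within 50 bp, and 96.3% and 97.2% within 100 bp. In 73 members (4.12%) the summits were more than 200 bp apart, and 67 of these had more than 1 summit in at least 1 list.

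**Figure D4:**
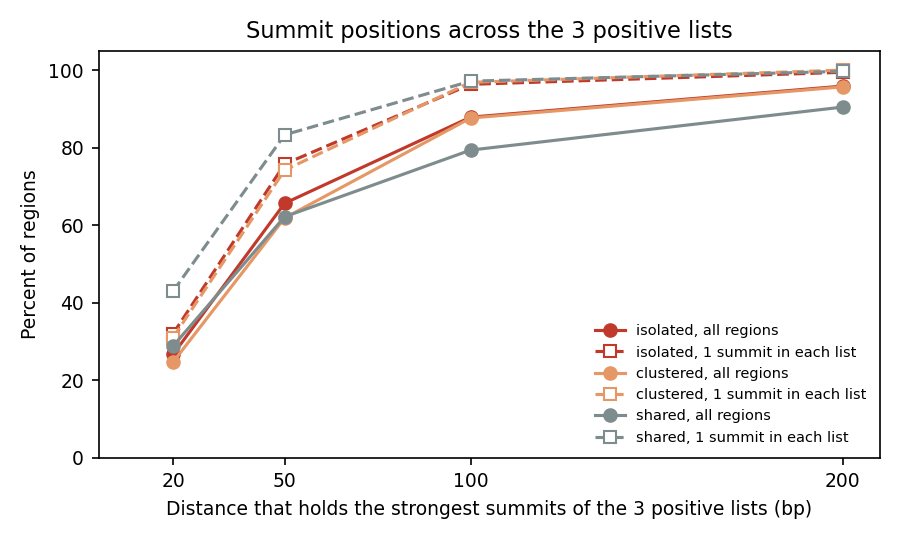
Lines give the percent of regions (y axis) whose strongest summits in the 3 positive lists lie within a given distance in bp (x axis), for all regions of a set and for those with 1 summit in each list. All isolated regions reach 87.9% at 100 bp, shared regions 79.4%, and with single summits the sets lie at 96.3% and 97.2%.

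The 50 kb rule uses only midpoints, so isolated regions could also be set against clustered ones. Fold enrichment chose both sets and is given as a description, with no test. Its median in isolated against clustered regions was 3.66 against 3.53, 4.0 against 3.96 and 4.37 against 4.13. The mean difference over the 3 libraries was 0.134 ± 0.104 (SD, n = 3). It fell to 0.0145 when the rule was applied without positive replicate 1, to 0.0366 without positive replicate 3, and was -0.0102 with the strongest 70000 intervals. With ranking by −log10 p it was 0.195, and with the strongest 20000 intervals 0.15. Width and summit number were compared with a two-sided exact sign-flip permutation test over the 3 libraries, which cannot give a p under 0.25. Interval width differed by 0.833 ± 7.94 bp (SD, n = 3; exact permutation p = 1), and the sign was not the same in the 3 libraries. The share of regions with more than 1 summit differed by -0.937 ± 1.06 percentage points (SD, n = 3; exact permutation p = 0.5). Summits lay within 100 bp in 87.6% of clustered and 87.9% of isolated regions, a difference of 0.224 percentage points.

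The stronger members differed in shape from the weaker ones, as a description of regions of the same lists. The 109 members within rank 20000 in all 3 positive lists had a median width of 580 bp and median fold enrichments of 5.85, 6.32 and 6.72. Their summits lay within 100 bp in 93.6% of cases. Median width fell to 488, 419 and 380 bp over the next 3 rank bands, and the share with summits within 100 bp to 92.9%, 89.6% and 83.0%. Height, width and the precision of a called summit are measured from the same signal. The 109 regions included 21 on chromosome 1, 18 on chromosome 2, 13 on chromosome 3 and 11 on chromosome 4, with 6 or fewer on every other chromosome. These 4 chromosomes also held the most regions of any kind. Chromosomes 1 to 5 held 62.4% of the 109 and 57.4% of all regions, a difference that was not tested.

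The isolated regions were spread over the genome much as accessible regions were. Chromosomes 1 to 5, the large macrochromosomes, held 1019 of them (57.5%) and 57.4% of all regions, while clustered positive-only regions were at 50.1% and negative-only regions at 62.2%. Chromosomes 6 to 33 held 661 isolated regions (37.3%, against 35.5% of all regions) and chromosome Z 89 (5.02%, against 6.04% of all regions). Sequences not placed on a chromosome held 4 (0.226%), against 1.04% of all regions. Chromosome W, on which 11 regions lay, held none. As a share of a chromosome's regions, isolated regions ranged from 1.97% to 2.49% on chromosomes 1 to 9. The shares were highest on chromosomes 25 (8 of 243 regions, 3.29%), 20 (37 of 1158, 3.2%) and 17 (31 of 992, 3.13%). Among chromosomes with at least 100 regions they were lowest on chromosomes 33 (1 of 150, 0.667%), 27 (4 of 431, 0.928%) and 22 (4 of 339, 1.18%), where the counts are small. On chromosome Z the share was 1.86%.

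**Figure D5:**
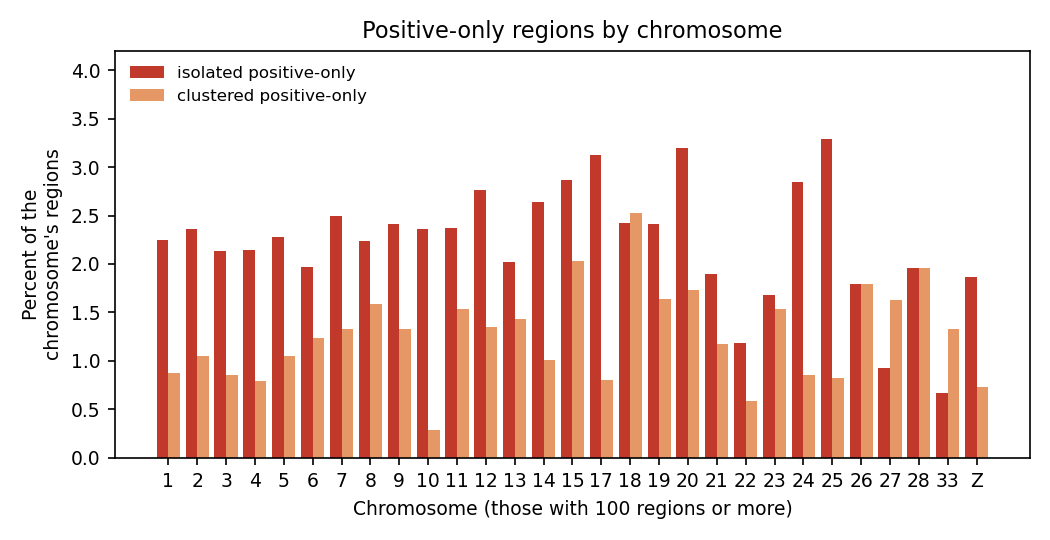
Bars give isolated and clustered positive-only regions as a percent of all regions on each chromosome that has at least 100 (x axis). Isolated regions lie between 1.97% and 2.49% on chromosomes 1 to 9 and vary more on the small chromosomes.

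The balance of isolated and clustered regions differed between chromosomes. On chromosome 10, 41 of 46 positive-only regions (89.1%) were isolated, and on chromosome 17 31 of 39 (79.5%). On chromosome 18, 22 of 45 (48.9%) were isolated, and on chromosomes 26 and 28 50% of 22 and 20. On chromosome 24, 76.9% of 26 positive-only regions were isolated, and on chromosome 27 36.4% of 11. Per Mb of listed extent there were 115, 112 and 103 regions on chromosomes 26, 24 and 28. Chromosomes 17, 10, 18 and 27 had 90.6, 85.2, 82.4 and 76.5. Whether the isolated shares go with the density of all regions or of positive-only regions was not tested.

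Isolated here means apart from other positive-only regions, not apart from open chromatin. A member had a median of 8 other regions with a midpoint within 50 kb (middle 50% from 6 to 11), the same median as over all regions, and 5 members had none. Clustered regions had a median of 10, which includes the positive-only neighbour that defines them. A shared region lay within 10 kb of 855 members (48.2%) and of 49.2% of clustered and 39.1% of negative-only regions. The 10 kb share was not computed over all regions, so whether members differ from them at this distance was not tested. The median gap to the nearest shared region was 10650 bp over the 1771 members with one on the same sequence. In 155 members (8.74%) no shared region had its midpoint within 50 kb, near the 9.71% of all regions. The share was 7.05% of shared, 6.71% of clustered and 12.2% of negative-only regions.

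Regions that met the positive rule less strictly were about as common near the members as elsewhere. Of the 1773, 573 (32.3%) had within 50 kb a region that was strong in all 3 positive lists and present in a negative list only below rank 50000. Among all regions that share was 29.9%, among shared regions 29.6% and among clustered regions 40.4%. A negative-only region lay within 50 kb of 402 members (22.7%), against 21.9% of all regions. The closest such pair had midpoints 625 bp apart.

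The negative lists did hold intervals beside many members. The nearest negative interval of any rank was a median of 2832 bp away, within 1 kb of 325 members (18.3%) and within 200 bp of 27. In 1591 members (89.7%) it was within 10 kb. Clustered regions had nearly the same median, 3060.5 bp, with 18.8% within 1 kb. These distances were not summarized over all regions, so whether the members differ from them was not tested. Requiring that no negative interval lie within 1 kb left 1448 members positive-only.

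The nearest shared region of each member was examined in all 5 libraries. Such a neighbour existed within 50 kb for 1618 members. Its median rank was 15760.5, 15969.5 and 16060.5 in positive replicates 1, 2 and 3 and 15237.5 and 15364.5 in negative replicates 1 and 2. Over all shared regions the medians were 14688.5, 14958.5, 14931.5, 14926 and 14934.5 in the same order. Of these neighbours, 361 (22.3%) ranked better in every positive than in any negative library, and 389 (24.0%) the other way round. Among all shared regions the shares were 23.3% and 21.0%. The shared regions next to the members thus ranked no better in positive libraries than shared regions did in general.

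The distance to the next positive-only region had a median of 170 kb (169919 bp) over the 1769 members with another on the same sequence. The 2 nearest to the limit of 50 kb were a pair on chromosome Z, from 70694917 to 70695385 and from 70744819 to 70745519, with midpoints 50.018 kb apart. Their fold enrichments were 4.77, 3.67 and 3.68 for the first and 3.77, 3.84 and 4.75 for the second. Just inside the limit, and so counted as clustered, lay regions on chromosome 12 from 15194450 to 15194679 and on chromosome 3 from 109872943 to 109873465, both about 49.6 kb from a neighbour. The member farthest from another was on chromosome 1 from 162237700 to 162237967, at 3470 kb. It was weak, with fold enrichments of 2.99, 3.4 and 4.56. The next, on chromosome 1 from 158545884 to 158546333, at 1816 kb, had 4.99, 4.67 and 4.56 and no shared region within 413 kb.

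At the limit in rank, the 3 members with the poorest rank nearest to 50000 were on chromosomes 15, 2 and 8. The one on chromosome 8, from 3928725 to 3929099, stood at ranks 49954, 37985 and 33224 and at fold enrichments of 2.67, 3.31 and 3.97 in the 3 positive lists, and lay 1.2 kb from a negative-only region (midpoint to midpoint). The one on chromosome 2, from 117651186 to 117651540, ranked 22009 and 23690 in positive replicates 1 and 3 and 49896 in positive replicate 2. The one on chromosome 15, from 6232981 to 6233390, was weak in all 3, at ranks 43175, 43116 and 49886. Of the 3 regions just outside, one on chromosome 4 from 27928574 to 27928723 ranked 42959, 32804 and 50005. Another on chromosome 26 from 2530845 to 2531207 ranked 46602, 38074 and 50013, and the other on chromosome 2 from 26899327 to 26899894 ranked 49262, 47393 and 50008. Those on chromosomes 4 and 2 lay 15.4 and 9.5 kb from a positive-only region, so better ranks would have made them clustered. Only the region on chromosome 26, at 109 kb, was outside by rank alone. The fold enrichments of these 3 regions, 2.72 to 3.65, overlap those of the members just inside.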

How the data were processed

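Each deposited file lists accessible intervals of 1 library, made by the authors with MACS2, as the peak names show. The submitters' processing notes name Bowtie2, MACS2 and galGal5, with no version or setting. The handling of duplicates and of the Tn5 shift is not given in the sources used here. The deposited columns give the fold enrichment of each summit over local background (a ratio), −log10 p and −log10 q values, a score, the start, end and summit. The smallest deposited −log10 q was 1.301 to 1.302. The authors' score was not used, and fold enrichment was used to describe and rank within a list, since it is not normalized between libraries. Where a region's fold enrichments are set side by side between positive libraries, they are not corrected for this.

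Rows of the same interval were joined (Python 3.11.15, pandas 2.3.3, numpy 2.4.6). Ties in fold were broken by −log10 p. Overlap meant at least 1 bp. The script was tested on simulated lists with planted regions. Members and comparisons were chosen with earlier results of these data known. Libraries, not regions, were the replicates: differences in width and summit number between isolated and clustered regions were tested with a two-sided exact sign-flip test over 3 libraries. The planned test of fold enrichment is not given, since fold enrichment chose the regions. Regions were named by mean rank, distance, width and nearness to a limit. Motif, sequence and gene comparisons need a galGal5 genome and were not run. The lookup in left-out lists, the rank bands and the surroundings within 50 kb were added after the data were seen.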

Additional observations from a re-analysis of the deposited data

How the results depend on the processing

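The count of 1773 isolated regions moved by more than 1.5 times in 4 alternatives: 145 with the strongest 20000 intervals, 621 with 30000, 2738 when absence was judged against the strongest 50000 negative intervals, and 3356 in the first naming series alone. The other alternatives gave 1367 to 2492, the latter without negative replicate 2, and leaving out a library gave 2030 to 2492. Ranking by −log10 p gave 1755 regions, and 1551 of the 1773 members were isolated in both. Lists of equal length, an alternative chosen after seeing the data, gave 2205. The replicate block, requiring both same-numbered pairs, gave 2090 and a fold enrichment difference of 0.0366. It equals leaving out positive replicate 3 by construction. Over shared regions the replicate differences correlated at 0.219 between groups, and 2 pairs do not show that the numbers pair the libraries. In both groups, replicates 1 and 2 also belong to different naming series, so pairing and series cannot be told apart.

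The isolated share of 68.0% became 97.3% (20000 intervals), 52.7% (70000), 64.4% (ranking by −log10 p), 80.9% (25 kb), 52.4% (100 kb), 61.2% (block) and 57.4 to 65.3% without 1 library. Each comparison with clustered regions changed sign in at least 1 alternative. Differences in width, summits and nearness to a shared region were largest with 20000 intervals. As a description, the fold enrichment difference reversed with 70000 intervals, at -0.0102. Its sign was kept in the other alternatives, which reuse the same libraries and are not independent of each other. The fold enrichment difference was 0.195 (ranking by −log10 p), 0.15 (20000), 0.124 (25 kb), 0.0934 (100 kb) and 0.0145 to 0.085 without 1 library. The width difference was 55.7 bp (20000), 10.7 bp (ranking by −log10 p) and 5.5 bp (25 kb). It was -4.5 bp (70000), -8.67 bp (100 kb), -1.75 bp (block) and -8 to -0.5 bp without 1 library. The multi-summit difference was 24.1 points (20000), 0.804 (25 kb) and -2.16 to 0.383 without 1 library. Summits differed by 19.5 points (20000), -2.4 (70000) and 3.78 (within 50 bp), and nearness to a shared region by 17.9 (20000), -4.11 (70000), -6.1 (ranking by −log10 p) and 2.28 (25 kb). The share on chromosomes 1 to 5 exceeded that of all regions by 6.08 points (20000) and by -0.534 to 2.9 without 1 library. With 20000 intervals only 4 clustered regions were left. The cause of the other shifts was not tested. Unknown depth limits what absence from a list means.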

Other observations

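Members were also grouped by their distance to the next positive-only region. There were 406 at 50 to 100 kb, 620 at 100 to 200 kb, 548 at 200 to 500 kb and 195 farther away. Their median width was 439, 421.5, 411.5 and 433 bp in this order, and their median fold enrichment in positive replicate 1 was 3.61, 3.68, 3.58 and 3.7. Height and width thus changed little with distance. The share on chromosomes 1 to 5 was 56.2%, 51.8%, 60.6% and 70.8%. A shared region lay within 10 kb of 49.8%, 48.9%, 48.5% and 42.6%.

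The mirror rule gave 1858 isolated regions among the 2476 negative-only ones (75.04%), against 68.0% on the positive side. The definitions need different numbers of lists, so the difference was not tested. Of the regions strong in all 3 positive lists, 645 were in negative replicate 1 and not in negative replicate 2, and 1730 the other way round.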
